A study of Mus musculus with 15 samples.

Results

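The heat shock proteins and their co-chaperones were followed in mouse embryonic fibroblasts reprogrammed toward heart muscle. The group was chosen by gene symbol and took in the HSP90, HSP70, HSP110, small heat shock protein and mitochondrial HSP60 and HSP10 genes, the DNAJA, DNAJB and DNAJC genes, the BAG genes, Cryab and Hsf1. It held 70 of the 14091 listed features, and all 70 passed the filter on low counts. By family these were 3 HSP90, 10 HSP70, 3 HSP110 and 7 small heat shock protein genes, the HSP60 and HSP10 pair, 4 DNAJA, 10 DNAJB, 24 DNAJC and 6 BAG genes, and Hsf1.

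RNA-seq was carried out on fibroblasts of the ICR strain in 3 groups of 5 libraries, named MEF, MGT and MΔGΔT in the titles. MGT denotes retroviral Mef2c, Gata4 and Tbx5, and in MΔGΔT the Mef2c and Gata4 factors carry a Δ that the labels do not define, in a study on engineered effector domains of both. Transduced cells were harvested at 1 week. Whether MEF cells were given an empty virus, and whether the 5 libraries of a group came from separate cultures, is not stated, so p-values measure only the spread between these libraries, which may be technical. Library totals ran from 8.21 to 11.1 mega-counts. Levels of a gene are given as CPM, its counts scaled to a library of 1 mega-count after TMM adjustment. Members held 0.732 to 0.773% of the counts in MEF, 0.824 to 0.85% in MGT and 0.785 to 0.811% in MΔGΔT. The 10 fibroblast markers, such as Col1a1 and Pdgfra, were all present and summed to 64010.1 to 71855 CPM in MEF, 40344 to 41357 in MGT and 34200.4 to 36734 in MΔGΔT. They did not move as one: 9 fell and Vim rose in MGT against MEF, and 8 fell and Vim and Thy1 rose in MΔGΔT against MEF, calls that held under all 5 scalings described below.

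Heat shock proteins are molecular chaperones. HSP70 binds exposed hydrophobic stretches of a client protein in a cycle driven by ATP. J-domain proteins (DNAJ) deliver clients and start ATP hydrolysis, and the HSP110 and BAG proteins release ADP so that the client can leave. HSP90 acts later on kinases and receptors, and small heat shock proteins hold unfolding proteins without ATP. Striated muscle carries a characteristic set of small heat shock proteins, led by αB-crystallin (Cryab), which protect sarcomere and cytoskeletal proteins under mechanical load. Hsf1 is the transcription factor that switches on heat shock genes under stress by binding the heat shock element.

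Promoter windows from RefSeq (GRCm38.p6, 250 bases before to 50 after a gene's start) were available for 55 of the 70 members, as 73 windows. They were searched on both strands for the heat shock element, written as GAANNTTCNNGAA or TTCNNGAANNTTC, that is 3 alternating units spaced by 2 bases. It occurred in 6 of the 73 windows (8.22%), belonging to 4 genes (Hspd1, Hspe1, Dnajb6 and Hsph1). This share counts the same stretches more than once, because Hspd1 and Hspe1 share 1 stretch read on opposite strands, and the windows of Dnajb6 and of Hsph1 overlap. The element was in 0.603% of all 32851 windows in the table and 0.482% of the 13067 windows of tested genes, where windows may overlap as well. The MEF2 box was in 0 of the 73 windows (3.19% of all windows, 1.71% of those of tested genes), and the CArG box in 1, that of Dnajc16 (1.63% and 1.28%). A match is a description of the letters and not evidence of binding, and 15 members, among them Cryab, Hspb2, Hsf1 and Hsp90aa1, were not matched. Shown are the window of Hspb7, the member with the largest rise, in which none of these motifs was found, and 3 windows with the heat shock element in capitals, whose genes moved in different directions. They lie at chr4:141420529-141420828 (plus strand), chr1:55087898-55088197 (plus), chr5:29735648-29735947 (plus) and chr5:149636266-149636565 (minus), in this order.
Hspb7: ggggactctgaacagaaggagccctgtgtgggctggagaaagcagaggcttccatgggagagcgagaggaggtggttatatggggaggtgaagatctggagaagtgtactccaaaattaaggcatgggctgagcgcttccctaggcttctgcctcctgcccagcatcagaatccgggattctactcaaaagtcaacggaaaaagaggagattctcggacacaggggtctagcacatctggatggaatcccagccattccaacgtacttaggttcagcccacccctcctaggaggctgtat
Hspe1: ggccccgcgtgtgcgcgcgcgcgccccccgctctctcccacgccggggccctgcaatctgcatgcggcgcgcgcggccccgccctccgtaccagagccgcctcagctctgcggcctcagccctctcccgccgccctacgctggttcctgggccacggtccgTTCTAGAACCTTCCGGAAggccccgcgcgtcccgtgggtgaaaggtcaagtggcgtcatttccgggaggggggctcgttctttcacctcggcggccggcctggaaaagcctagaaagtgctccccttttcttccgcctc
Dnajb6: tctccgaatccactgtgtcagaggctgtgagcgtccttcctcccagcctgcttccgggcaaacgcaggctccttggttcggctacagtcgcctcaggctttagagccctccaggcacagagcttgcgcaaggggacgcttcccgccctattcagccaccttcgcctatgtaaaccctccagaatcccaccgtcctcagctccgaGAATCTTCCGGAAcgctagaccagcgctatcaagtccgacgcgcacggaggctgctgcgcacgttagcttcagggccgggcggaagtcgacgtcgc
Hsph1: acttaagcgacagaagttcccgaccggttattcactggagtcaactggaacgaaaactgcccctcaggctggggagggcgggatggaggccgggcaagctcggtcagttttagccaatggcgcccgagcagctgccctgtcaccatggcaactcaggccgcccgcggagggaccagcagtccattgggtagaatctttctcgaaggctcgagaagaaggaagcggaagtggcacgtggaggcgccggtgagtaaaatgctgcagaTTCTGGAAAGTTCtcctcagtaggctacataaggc

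The first comparison, MGT against MEF, addressed the unaltered factors. The small heat shock proteins of muscle rose, by fold most in Hspb7, Hspb2 and Cryab. Bag1, Bag2 and Bag3, Hsp90aa1 and some cytosolic J proteins (Dnaja2, Dnaja4, Dnajb4, Dnajb5) rose too. Dnajc6 rose 28.1-fold, next among the members to Hspb7 (33.3-fold). The mitochondrial HSP70 gene Hspa9, the HSP110 gene Hsph1, the cytosolic J proteins Dnajb1 and Dnaja1, and Bag5 fell. Calls, and the verbs rose and fell, require an adjusted p under 0.05. Every adjusted p is from edgeR's quasi-likelihood test over all 13328 tested features with Benjamini-Hochberg adjustment. Of the 70 members 25 were higher (background 30.9% of all tested features), 17 were lower (background 30.3%) and 28 were neither, a share close to the background in the upward direction and somewhat below it in the downward one. At least 2-fold, 5 were higher (background 6.87%) and 1 lower (background 9.39%). The median log2 fold change of the members was 0.03, against 0.00 for all tested features. In these bulk samples, a change in the share of cells that express a gene and a change in RNA per cell cannot be told apart.

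In MΔGΔT against MEF, 31 members were higher (background 36.2%), 20 lower (background 36.1%) and 19 neither. At least 2-fold, 10 were higher (background 10.7%) and 3 lower (background 12.2%), with a median log2 fold change of 0.06 against -0.01 for all features. The altered factors were set against the unaltered ones in MΔGΔT against MGT, where 31 members were higher (background 30.4%), 10 lower (background 27.8%) and 29 neither. At least 2-fold, 4 were higher (background 5.21%) and 1 lower (background 4.80%), and the medians were 0.08 and 0.01. The count of 10 lower members became 6 without replicate 4 of MΔGΔT. The first and second comparison share the MEF libraries, and the third shares each of its groups with one of them.

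These splits move with the scaling of the libraries. With library totals the median of all features shifted to 0.08, -0.10 and -0.16 in the comparisons in the order above, and with the totals that the deposited RPKM values imply to 0.02, -0.24 and -0.25. Members split into 33 higher and 13 lower with library totals in MGT against MEF, where 38.9% and 24.6% of all features were called. In MΔGΔT against MGT library totals gave 20 higher and 29 lower members, with 18.3% and 46.5% of all features. RPKM-implied totals gave 12 and 34 there, with 14% and 54.5% of all features, so the split moved for all features and not for the members alone. A stricter rule was therefore added after the data were seen, under which a gene must be called in the same direction by all 5 scalings tried (TMM, library totals, upper-quartile factors, RPKM-implied totals and DESeq2). By this rule 24 members were higher (background 28.1%) and 13 lower (background 24.5%) in MGT against MEF. In MΔGΔT against MEF 22 were higher (background 21.9%) and 20 lower (background 35.0%), and in MΔGΔT against MGT 12 were higher (background 14%) and 9 lower (background 26.8%). Genes below that pass it are said to hold under all 5 scalings.

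**Figure D1:**
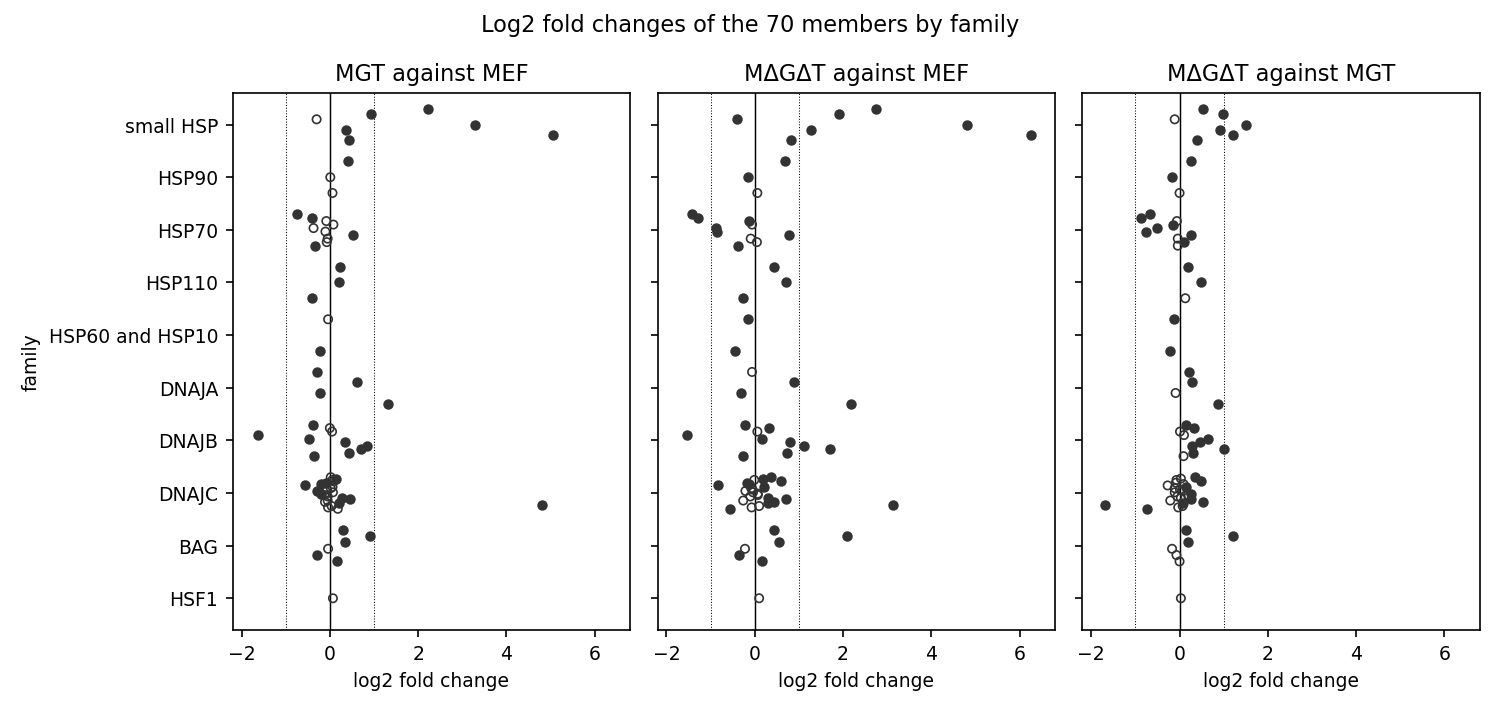
Log2 fold change (x axis) of each of the 70 members, grouped by family (y axis), in the 3 comparisons; each point is a gene, filled where the adjusted p is under 0.05 and open otherwise, and dotted lines mark a 2-fold change. The small heat shock proteins reach 5.06 in MGT and 6.27 in MΔGΔT against MEF, while most points of the other families lie within the dotted lines.

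The small heat shock protein genes held the member with the largest rise, Hspb7. Of 7 genes 6 rose in both comparisons with MEF and in MΔGΔT against MGT. The background was 30.9% in MGT and 36.2% in MΔGΔT against MEF, and 30.4% in MΔGΔT against MGT. All these rises but that of Hspb8 in MΔGΔT against MGT (0.39, and 0.14 at the lowest scaling) held under all 5 scalings. By that rule the background was 28.1%, 21.9% and 14%, in the same order. The exception by gene was Hspb11, a part of the intraflagellar transport machinery despite its symbol, which was lower in MΔGΔT than in MEF (log2 fold change -0.40 ± 0.142, SE, adjusted p = 0.0108) and at -0.30 ± 0.136 in MGT (adjusted p = 0.0551). 

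Hspb7, the cardiovascular small heat shock protein that binds filamin C (chromosome 4, 141420779 to 141425311, mm10), stood at 2.33, 2.68, 3.58, 2.17 and 4.24 CPM in the 5 MEF libraries. In MGT it stood at 94.3, 96.2, 108, 96.4 and 105 CPM, and in MΔGΔT at 223, 229, 235, 234 and 236. The groups lay far apart, and the 5 libraries of MΔGΔT spread little. The log2 fold change was 5.06 ± 0.0835 in MGT (SE, adjusted p = 2.2e-36) and 6.27 ± 0.0772 in MΔGΔT (adjusted p = 4.4e-41) against MEF. Between the transduced groups Hspb7 was higher in MΔGΔT by 1.21 ± 0.0447 (adjusted p = 2.1e-24), with a range of 0.96 to 1.21 over the 5 scalings.

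Cryab, which encodes αB-crystallin (chromosome 9, 50751325 to 50756636), was already well expressed in MEF at 59.2, 52.2, 52.1, 55.9 and 51.1 CPM. Its MGT libraries stood at 242, 266, 272, 231 and 259 CPM and its MΔGΔT libraries at 341, 364, 380.4, 375 and 361. No library of one group reached into the range of another. The rises against MEF were 2.23 ± 0.0482 in MGT (adjusted p = 4.0e-32) and 2.75 ± 0.0483 in MΔGΔT (adjusted p = 1.3e-35), a 4.69-fold and a 6.73-fold change. The step from MGT to MΔGΔT was 0.52 ± 0.0421 (adjusted p = 1.2e-13), and 0.26 at the lowest of the 5 scalings. Within a library, a measure that no scaling moves, Hspb7 counts were 3.89 to 8.3% of Cryab counts in MEF, 36.1 to 41.8% in MGT and 61.8 to 65.6% in MΔGΔT.

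Hspb2, named for its binding to the myotonic dystrophy kinase, lies head to head with Cryab (50751078 to 50752354, minus strand). The annotated exons of the pair overlap, by 17% of the exon bases of Cryab and 30.2% of those of Hspb2, and whether counting used strand is not given in the sources used here. Hspb2 had 3 to 8 counts per library in MEF, 49 to 66 in MGT and 131 to 160 in MΔGΔT. Its log2 fold changes were 3.29 ± 0.218 and 4.80 ± 0.177 against MEF (adjusted p = 1.6e-16 and 5.5e-25) and 1.51 ± 0.106 between the transduced groups (adjusted p = 1.6e-15). Hspb2 counts were 0.648 to 1.47% of Cryab counts in MEF, 1.92 to 2.35% in MGT and 3.83 to 4.83% in MΔGΔT, so the share was not constant.

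Hspb1 (HSP25 of the mouse, a regulator of actin filaments, chromosome 5, 135887919 to 135889563) stood at 25, 22.9, 24, 22.8 and 19 CPM in MEF. It stood at 41.3, 46.5, 47.2, 42.5 and 40.1 CPM in MGT and at 83.8, 87.1, 98.8, 82.3 and 76.5 in MΔGΔT. With TMM it thus rose in steps of similar size, 0.93 ± 0.0739 from MEF to MGT (adjusted p = 3.3e-13) and 0.98 ± 0.0614 from MGT to MΔGΔT (adjusted p = 1.3e-15). Over the 5 scalings these steps ranged from 0.91 to 1.01 and from 0.72 to 0.98. Hspb6, a small heat shock protein phosphorylated in muscle by cyclic nucleotide kinases, behaved differently. It stood at 9, 8.72, 7.17, 11 and 8.26 CPM in MEF, at 12, 11.4, 12.3, 12.2 and 8.77 in MGT and at 20.5, 19.6, 21.1, 22.7 and 23.1 in MΔGΔT. MEF and MGT overlapped, through replicate 5 of MGT, which lay below replicates 1 and 4 of MEF. The call there was small (0.37 ± 0.106, adjusted p = 0.00264), whereas MΔGΔT exceeded MGT by 0.91 ± 0.0899 (adjusted p = 2.4e-11). Hspb8, the partner of Bag3 in selective autophagy, ranged from 28.8 to 35.5 CPM in MEF, 41.4 to 44.3 in MGT and 51.4 to 58.5 in MΔGΔT. It rose by 0.43 ± 0.0589 and 0.82 ± 0.0579 against MEF (adjusted p = 4.2e-08 and 6.8e-16).

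**Figure D2:**
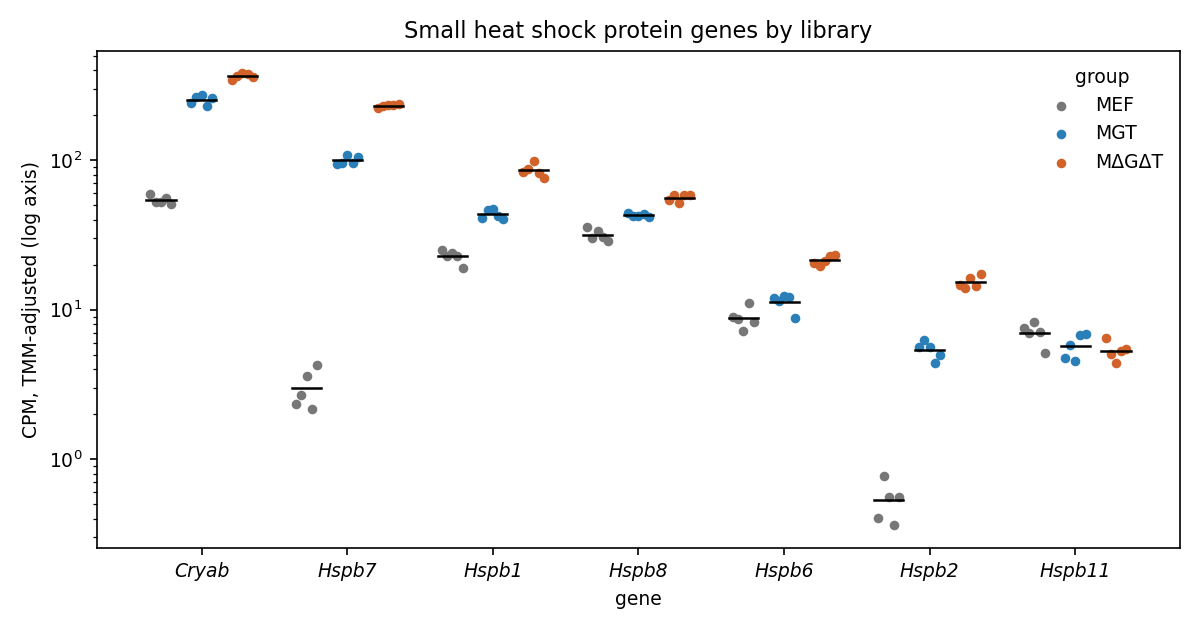
Level of the 7 small heat shock protein genes in each library, in TMM-adjusted CPM on a log axis (y), by gene (x) and group (colour); each point is a library and each bar the mean of 5. Hspb7 goes from 2.17 to 4.24 CPM in MEF to 223 to 236 in MΔGΔT, and Hspb11 is the gene without a rise.

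Markers of heart muscle cells moved with the small heat shock proteins: all 10 rose in both transduced groups against MEF, from a summed 7.39 to 8.15 CPM in MEF to 1372 to 1558 in MGT and 11638 to 13083 in MΔGΔT, and none of the 10 was at 0 in any group. Between the transduced groups 9 were higher in MΔGΔT and Tnni3 was lower, at -0.88 to -0.63 over the 5 scalings. Of the skeletal muscle markers 4 of 10 were found by symbol, with sums of 0.288 to 0.966 CPM in MEF (Myog at 0), 2.81 to 5.51 in MGT and 109 to 138 in MΔGΔT. Macrophage markers fell, all 9 found of 10, from 1856 to 2488 CPM in MEF to 147 to 272 in MGT and 194 to 287 in MΔGΔT. The 6 endothelial markers found of 8 summed to 55.1 to 57.9, 36.5 to 45.2 and 23 to 31.2 CPM. Of the 5 tested, Kdr rose in both comparisons with MEF. Over the 5 scalings it was at 1.19 to 1.29 in MGT and 0.65 to 0.89 in MΔGΔT. Tek, Vwf and Emcn fell in MGT, and Tek, Vwf and Erg in MΔGΔT. The fall of Emcn did not hold under all 5 scalings. What part these cell types had in the changes of the members was not tested.

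The cytosolic HSP90 genes parted. Hsp90aa1, the stress-inducible form (chromosome 12, 110690605 to 110702728), stood at 137, 143, 148, 134 and 144 CPM in MEF, 185, 192, 194, 192 and 183 in MGT, and 227, 222, 224, 226 and 231 in MΔGΔT. It rose by 0.42 ± 0.0362 and 0.68 ± 0.0362 against MEF (adjusted p = 3.6e-13 and 1.2e-19), both of which held under all 5 scalings. The further step of 0.26 ± 0.0353 from MGT to MΔGΔT (adjusted p = 6.2e-08) did not, since it vanished with RPKM-implied totals (-0.00, adjusted p = 0.993). Hsp90ab1, the constitutive form (chromosome 17, 45567775 to 45573271), ranged from 1217 to 1329 CPM in MEF, 1264 to 1315 in MGT and 1105 to 1199.9 in MΔGΔT. It was called lower in MΔGΔT, by -0.15 ± 0.0315 against MEF (adjusted p = 4.4e-05) and -0.16 ± 0.0315 against MGT (adjusted p = 3.3e-05), and both calls held under all 5 scalings. Within a library, Hsp90aa1 counts were 10.1 to 11.9% of Hsp90ab1 counts in MEF, 13.9 to 15.2% in MGT and 19.2 to 20.4% in MΔGΔT, without overlap between the groups. Hsp90b1, the HSP90 of the endoplasmic reticulum, was not called with TMM over all 15 libraries in any comparison (0.06 ± 0.037, 0.06 ± 0.0371 and 0.00 ± 0.037). Without replicate 1 of MEF it was called higher in MGT and in MΔGΔT than in MEF (0.09 in each, adjusted p = 0.0271 and 0.0194). It was called higher in MGT with library totals (0.13, adjusted p = 0.00172), and its sign in MΔGΔT turned with RPKM-implied totals (-0.18 against MEF, adjusted p = 0.0032).

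Among the 10 HSP70 genes 1 rose and 3 fell in MGT (background 30.9% and 30.3%), and 1 rose and 6 fell in MΔGΔT against MEF (background 36.2% and 36.1%), all of which held under all 5 scalings. By that rule the background was 28.1% higher and 24.5% lower in MGT, and 21.9% and 35.0% in MΔGΔT. The gene that rose in both was Hspa2, an HSP70 needed in male meiosis, at 0.52 ± 0.0883 and 0.77 ± 0.0877 (adjusted p = 2.9e-06 and 5.2e-10). Hspa8, the constitutive HSP70 of the cytosol (chromosome 9, 40800984 to 40810087), ranged from 175 to 201 CPM in MEF, 172 to 187 in MGT and 187 to 197 in MΔGΔT. These ranges overlapped. Its difference between the transduced groups, 0.11 ± 0.0387 (adjusted p = 0.0106), took the other sign with library totals (-0.06) and RPKM-implied totals (-0.14). Hspa5 (BiP, the HSP70 of the endoplasmic reticulum) was at -0.05 ± 0.0407 in MGT and -0.09 ± 0.0407 in MΔGΔT against MEF (adjusted p = 0.266 and 0.052). The value in MΔGΔT lay at the threshold: it was called lower with library totals (-0.18), upper-quartile factors (-0.17) and RPKM-implied totals (-0.33), and without replicate 1 or 2 of MEF or replicate 3 of MΔGΔT (adjusted p = 0.00735 to 0.0379).

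Hspa9 (mortalin, the HSP70 of the mitochondrial matrix) stood at 633, 628, 674, 627 and 625 CPM in MEF. Its MGT libraries stood at 478, 514, 503, 512 and 525 CPM, and its MΔGΔT libraries at 481, 497, 514, 467 and 512. With TMM the transduced groups overlapped, below MEF. Between them Hspa9 was at -0.04 (adjusted p = 0.391), but was called lower in MΔGΔT with library totals (-0.21), upper-quartile factors (-0.09) and RPKM-implied totals (-0.29). The falls against MEF were -0.33 ± 0.0342 and -0.37 ± 0.0343 (adjusted p = 5.2e-11 and 2.6e-12) and held under all 5 scalings. Hspa12a and Hspa12b, distant relatives of HSP70, were the members that fell stepwise. Hspa12a stood at 16.6, 15.4, 16.5, 13.8 and 14.6 CPM in MEF, 9.24, 9.55, 8.22, 9.87 and 8.97 in MGT and 6.55, 5.04, 4.95, 6.17 and 6.32 in MΔGΔT, with log2 fold changes of -0.75 ± 0.0911 and -1.41 ± 0.102 against MEF (adjusted p = 3.1e-09 and 1.8e-15). Hspa12b ranged from 18.1 to 22.1, 14.3 to 16.1 and 6.39 to 11.2 CPM, and fell by 0.41 ± 0.0889 and 1.29 ± 0.102 on the log2 scale (adjusted p = 0.000102 and 2.3e-14).

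The heat-inducible pair Hspa1a and Hspa1b lies in tandem on chromosome 17 with near-identical sequence, so reads may be split between the genes in either way. Hspa1b stood at 10.2, 11.5, 10.3, 9.3 and 9.04 CPM in MEF, 10.6, 9.55, 8.4, 9.1 and 9.59 in MGT and 6.44, 4.84, 5.77, 5.06 and 5.88 in MΔGΔT. MEF and MGT overlapped (-0.10 ± 0.0998, adjusted p = 0.406), and MΔGΔT lay below both (-0.86 ± 0.113 against MEF, adjusted p = 1.4e-08; -0.76 ± 0.112 against MGT, adjusted p = 2.3e-07). Hspa1a ranged from 2.46 to 4.95, 2.55 to 3.86 and 1.92 to 2.82 CPM, and was called lower in MΔGΔT against MEF (-0.87 ± 0.189, adjusted p = 9.4e-05).

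The HSP110 genes, nucleotide exchange factors of HSP70, split. Hspa4 stood at 296, 298, 295, 299 and 297 CPM in MEF, 326, 362, 354, 349 and 352 in MGT and 409, 396, 402, 399 and 399.8 in MΔGΔT, with rises against MEF of 0.23 ± 0.0328 and 0.43 ± 0.0328 (adjusted p = 9.3e-08 and 6.1e-15). Hspa4l rose by 0.21 ± 0.0648 and 0.70 ± 0.063 (adjusted p = 0.00486 and 9.7e-13). Hsph1, the inducible HSP110 with a heat shock element in the window printed above, went the other way. It ranged from 68.4 to 76.6 CPM in MEF, 50.1 to 59 in MGT and 51.1 to 66.3 in MΔGΔT, and fell by 0.40 ± 0.0582 and 0.27 ± 0.0586 (adjusted p = 2.8e-07 and 0.000104). The mitochondrial chaperonin genes Hspd1 (HSP60) and Hspe1 (HSP10) stand head to head on chromosome 1, with start sites 111 bases apart. In MΔGΔT against MEF both were lower, Hspd1 by -0.16 ± 0.0438 and Hspe1 by -0.44 ± 0.0891 (adjusted p = 0.00129 and 0.000134). In MGT against MEF Hspd1 was at -0.04 ± 0.0433 (adjusted p = 0.482). The call of Hspe1 there (-0.22 ± 0.0855, adjusted p = 0.0281) was lost with library totals (-0.15) and RPKM-implied totals (-0.20), and without replicate 2 or 3 of MEF or 1 or 5 of MGT (adjusted p = 0.0619 to 0.0751). Between MΔGΔT and MGT its call (-0.22 ± 0.089, adjusted p = 0.0426) was lost without replicate 2, 3 or 4 of MGT or any library of MΔGΔT (adjusted p = 0.0505 to 0.119), and that of Hspd1 (-0.12 ± 0.0435, adjusted p = 0.0135) without replicate 4 of MΔGΔT (adjusted p = 0.0655).

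J-domain proteins were the most numerous members. Of the 4 DNAJA genes Dnaja2 and Dnaja4, both cytosolic, rose against MEF, and Dnaja3, which acts in mitochondria, fell (-0.23 ± 0.0485 in MGT and -0.32 ± 0.0498 in MΔGΔT, adjusted p = 9.2e-05 and 5.2e-07). Dnaja4 (chromosome 9, 54698873 to 54716315) stood at 5.46, 4.99, 5.26, 5.8 and 5.25 CPM in MEF, 14.1, 14.9, 12.5, 14.6 and 10.6 in MGT and 24.2, 24.2, 25.4, 25.9 and 21.7 in MΔGΔT. Its log2 fold changes were 1.32 ± 0.108 and 2.18 ± 0.0995 against MEF (adjusted p = 8.4e-14 and 6.1e-22) and 0.86 ± 0.0806 against MGT (adjusted p = 5.6e-12). Wdr61, on the opposite strand, shares 44.1% of the exon bases of Dnaja4. Wdr61 rose less, by 0.29 and 0.35 against MEF, and Dnaja4 counts were 13.1 to 16.4% of its counts in MEF, 22.8 to 36.4% in MGT and 49 to 58.9% in MΔGΔT. Dnaja2 ranged from 109 to 126, 174 to 188 and 210.4 to 226 CPM (0.61 ± 0.0402 and 0.89 ± 0.0402 against MEF, adjusted p = 1.7e-16 and 5.0e-22). Dnaja1, a general cytosolic partner of Hspa8, fell in MGT (-0.29 ± 0.0464, adjusted p = 1.3e-06) and was at -0.06 ± 0.0463 in MΔGΔT (adjusted p = 0.223). In MΔGΔT it was called lower than in MEF with library totals (-0.16), upper-quartile factors (-0.15) and RPKM-implied totals (-0.30), and without replicate 3 of MEF (-0.10, adjusted p = 0.0328).

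Of the 10 DNAJB genes 4 rose and 4 fell in MGT (background 30.9% and 30.3%), all under all 5 scalings. In MΔGΔT against MEF 6 rose and 3 fell (background 36.2% and 36.1%), and 4 of the rises and all 3 falls held under all 5 scalings. By that rule the background was 28.1% higher and 24.5% lower in MGT, and 21.9% and 35.0% in MΔGΔT. Dnajb5, a cytosolic J protein (chromosome 4, 42949814 to 42959425), stood at 19.6, 17.4, 17.1, 17.5 and 18.4 CPM in MEF, 28.9, 29.1, 31, 27.9 and 29.3 in MGT and 58, 57.7, 59, 61.6 and 57.5 in MΔGΔT. The groups lay apart, and the log2 fold changes were 0.70 ± 0.0625 and 1.70 ± 0.058 against MEF and 1.01 ± 0.0522 against MGT (adjusted p = 1.3e-12, 3.6e-26 and 1.3e-19). Dnajb4 rose by 0.84 ± 0.0467 and 1.12 ± 0.0465 against MEF (adjusted p = 6.2e-19 and 2.9e-23), and Dnajb2 and Dnajb6 rose with it. Dnajb6, an inhibitor of protein aggregation that is mutated in a human muscular dystrophy and carries a heat shock element in the window above, rose by 0.43 ± 0.0524 and 0.73 ± 0.052 (adjusted p = 2.9e-09 and 1.1e-15). Dnajb1, the classic heat-inducible partner of HSP70, fell by 0.38 ± 0.0496 and 0.23 ± 0.0498 (adjusted p = 1.8e-08 and 7.9e-05). Within a library, Dnajb5 counts were 28.5 to 31.5% of Dnajb1 counts in MEF, 57.9 to 70.2% in MGT and 104 to 123% in MΔGΔT.

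Dnajb14, a J protein of the endoplasmic reticulum membrane (chromosome 3, 137867675 to 137916557), was the member called in opposite directions in the comparisons with MEF. It stood at 78.5, 79.7, 81.4, 73.3 and 77.6 CPM in MEF, 51.4, 59.5, 55.8, 56.6 and 58.3 in MGT and 85.3, 88.3, 85.1, 90.2 and 88.5 in MΔGΔT. All MGT libraries lay below, and all MΔGΔT libraries above, those of MEF. The fall in MGT (-0.47 ± 0.0453, adjusted p = 6.9e-12) and the difference between the transduced groups (0.64 ± 0.0447, adjusted p = 1.7e-15) held under all 5 scalings. The small rise in MΔGΔT (0.16 ± 0.0439, adjusted p = 0.00118) did not, with -0.07 under RPKM-implied totals. Dnajb12, its relative in the same membrane, was not called with TMM (0.05 ± 0.0463 and 0.06 ± 0.0469 against MEF), was called higher in MGT with library totals (0.12) and lower in MΔGΔT with RPKM-implied totals (-0.18). Dnajb11, of the lumen of the endoplasmic reticulum, was at -0.00 ± 0.0506 in MGT and rose in MΔGΔT by 0.32 ± 0.0502 (adjusted p = 5.4e-07), a call that not every scaling gave. Dnajb13, a sperm flagellum protein, was near the limit of counting, with 10 to 22 counts per library in MEF, 2 to 9 in MGT and 4 to 8 in MΔGΔT, and was called lower (-1.63 ± 0.314 and -1.53 ± 0.321, adjusted p = 2.1e-05 and 5.8e-05). It shares 11.2% of its exon bases with Ucp2, which fell by 1.59 and 2.35 on the log2 scale.

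Among the 24 DNAJC genes 5 rose and 5 fell in MGT (background 30.9% and 30.3%), of which 4 and 2 held under all 5 scalings. In MΔGΔT against MEF 9 rose and 4 fell (background 36.2% and 36.1%), of which 3 rises (Dnajc1, Dnajc3 and Dnajc6) and all 4 falls held. Under all 5 scalings the background was 28.1% higher and 24.5% lower in MGT, and 21.9% and 35.0% in MΔGΔT. Dnajc6, which encodes auxilin, the J protein that uncoats clathrin vesicles and is best known from neurons (chromosome 4, 101496648 to 101642799), followed a pattern of its own. It had 5, 5, 3, 6 and 1 counts in the MEF libraries, 142, 119, 144, 157 and 123 in MGT and 24, 47, 41, 36 and 37 in MΔGΔT. The MGT libraries were the highest and those of MΔGΔT lay between, without overlap. The log2 fold changes were 4.81 ± 0.201 in MGT and 3.13 ± 0.263 in MΔGΔT against MEF, and -1.68 ± 0.125 between them (adjusted p = 6.1e-23, 1.2e-13 and 1.0e-14). It was the member at least 2-fold lower in MΔGΔT than in MGT. Dnajc9, a histone chaperone, was lower in MΔGΔT than in MGT as well (-0.74 ± 0.0911, adjusted p = 5.7e-09). Dnajc3, an inhibitor of stress kinases in the endoplasmic reticulum, ranged from 153 to 163, 204 to 223 and 249.6 to 269.5 CPM and rose by 0.46 ± 0.0364 and 0.72 ± 0.0364 against MEF (adjusted p = 2.9e-14 and 1.7e-20). Dnajc10, a disulfide reductase of the same compartment, rose by 0.15 ± 0.0383 and 0.18 ± 0.0384 (adjusted p = 0.000719 and 5.2e-05), the latter with the other sign under RPKM-implied totals (-0.05). The endosomal Dnajc13 was lower in MΔGΔT than in MEF (-0.17 ± 0.0346, adjusted p = 4.4e-05), and its call in MGT (-0.09 ± 0.0344, adjusted p = 0.019) was lost with library totals (-0.02) and RPKM-implied totals (-0.07), and without replicate 1 of MEF (adjusted p = 0.0602). Members of the family that were not called lay between -0.12 and 0.18 in MGT and between -0.26 and 0.10 in MΔGΔT against MEF.

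The BAG genes encode exchange factors that link HSP70 to degradation routes, and 4 of 6 rose in both comparisons with MEF (background 30.9% in MGT and 36.2% in MΔGΔT). The 1 that fell in both was Bag5 (background 30.3% and 36.1%). It was at -0.28 ± 0.0578 in MGT and -0.35 ± 0.0594 in MΔGΔT (adjusted p = 6.1e-05 and 2.1e-06). Both of its calls held under all 5 scalings. Bag2, an inhibitor of the ubiquitin ligase that works with HSP70 (chromosome 1, 33745484 to 33757795), stood at 15.2, 14.9, 14.9, 15.2 and 15.4 CPM in MEF. It stood at 25.2, 30.8, 28.7, 26.7 and 29.7 CPM in MGT and at 61.5, 62.6, 69, 71.5 and 59.6 in MΔGΔT. With TMM the step from MGT to MΔGΔT, 1.21 ± 0.0589 (adjusted p = 2.1e-20), was larger in value than that from MEF to MGT, 0.90 ± 0.0739 (adjusted p = 1.1e-13). Both calls held under all 5 scalings, over which the steps ranged from 0.95 to 1.21 and from 0.87 to 0.97. Bag3, the BAG protein of muscle that drives the autophagy of damaged filamin (chromosome 7, 128523616 to 128546981), moved less. It stood at 82.3, 87.4, 79.8, 83.6 and 79.1 CPM in MEF, 107, 108, 100.1, 98.2 and 111 in MGT and 117, 123, 118, 116 and 124 in MΔGΔT, with rises of 0.35 ± 0.0425 and 0.54 ± 0.0425 against MEF (adjusted p = 3.8e-09 and 2.4e-14). The difference between the transduced groups (0.19 ± 0.041, adjusted p = 0.00012) was -0.07 with RPKM-implied totals. Bag1, which binds both HSP70 and the proteasome, rose by 0.30 ± 0.0455 and 0.44 ± 0.0457 (adjusted p = 4.0e-07 and 5.0e-11). Bag6, a guide of membrane proteins to their insertion machinery, rose by 0.16 in both groups (adjusted p = 0.000456 and 0.000378), although in MΔGΔT it was -0.08 with RPKM-implied totals. Within a library, Bag2 counts were 18.2 to 21.9% of Bag1 counts in MEF, 28.2 to 33.7% in MGT and 56.4 to 71.8% in MΔGΔT.

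**Figure D3:**
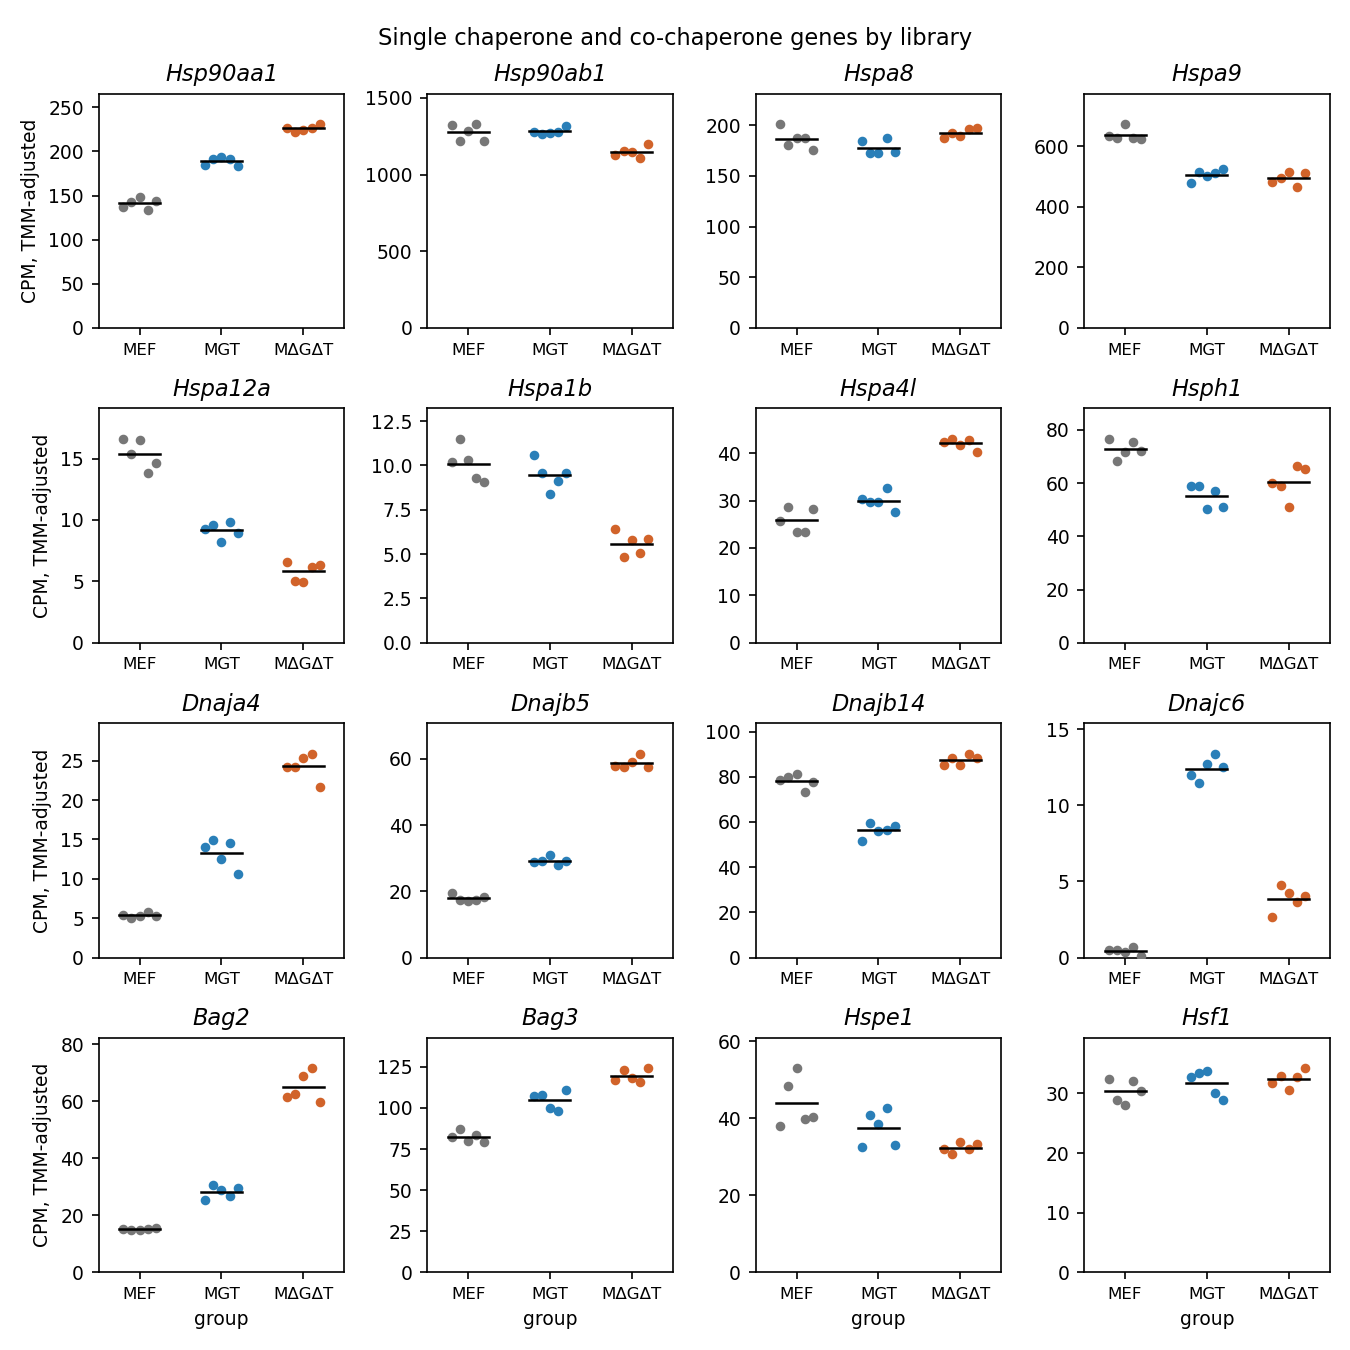
Level of 16 single members in each library, in TMM-adjusted CPM from 0 (y), by group (x); each point is a library and each bar the mean of 5. Bag2 and Dnajb5 rise in steps, Hspa12a falls in steps, Dnajc6 is highest in MGT, Dnajb14 is lowest in MGT, and the Hsf1 values of the 3 groups overlap with TMM.

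A stepwise order was counted over all members. In 18 of 70 every MEF library lay below every MGT library and every MGT library below every MΔGΔT library (background 9.69% of all tested features), and in 2, Hspa12a and Hspa12b, the order was reversed (background 5.93%). The 18 genes, named here after their values were seen, were Cryab, Hspb1, Hspb2, Hspb7 and Hspb8, Bag1, Bag2 and Bag3, Dnaja2, Dnaja4, Dnajb2, Dnajb4, Dnajb5, Dnajb6, Dnajc3, Dnajc5, Hsp90aa1 and Hspa4. The share of members that rose stepwise was 25.7%. This order uses TMM-adjusted CPM, and its upper step is subject to the dependence on scaling given above. Under all 5 scalings, only Cryab, Hspb1, Hspb2, Hspb7, Bag2, Dnaja4, Dnajb2 and Dnajb5 of these genes were called higher in MΔGΔT than in MGT. At the lowest scaling that step was -0.12 for Bag1, -0.07 for Bag3, -0.18 for Dnajc5 and -0.05 for Hspa4.

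Hsf1 itself (chromosome 15, 76477422 to 76501913) stood at 32.4, 28.9, 28.1, 32.1 and 30.5 CPM in MEF, 32.8, 33.5, 33.7, 30.1 and 28.9 in MGT and 31.8, 33, 30.6, 32.8 and 34.2 in MΔGΔT. The 3 groups overlapped. The log2 fold changes were 0.07 ± 0.0613 and 0.10 ± 0.0624 against MEF and 0.03 ± 0.0605 between the transduced groups (adjusted p = 0.354, 0.165 and 0.701). These values move with the scaling: Hsf1 was called higher in MGT than in MEF with library totals (0.14, adjusted p = 0.0404). It was called lower in MΔGΔT than in MGT with library totals (-0.14, adjusted p = 0.0366) and with totals implied by RPKM (-0.23, adjusted p = 0.00364). A transcript level says nothing of the activity of this factor, which is controlled on the protein. Of 5 other tested genes named for heat shock factors or their binding proteins, 2 rose and 1 fell in both comparisons with MEF. The background was 30.9% and 30.3% in MGT and 36.2% and 36.1% in MΔGΔT. Under all 5 scalings 2 rose and 0 fell in MGT (background 28.1% and 24.5%). In MΔGΔT against MEF these were 2 and 1 (background 21.9% and 35.0%). Hsf4, the heat shock factor of the lens, fell from 1.69 to 2.24 CPM in MEF to 0.327 to 1.03 in MΔGΔT (-1.35, adjusted p = 3.0e-05). Hsbp1l1 and Hsf2bp rose from means near the limit of counting in MEF, 0.151 and 0.212 CPM. Their means were 1.95 and 1.38 CPM in MGT and 1.2 and 1.56 in MΔGΔT. Hsbp1l1 was lower in MΔGΔT than in MGT (-0.70, adjusted p = 0.0141), a call that held under all 5 scalings.

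Levels between genes were compared by the deposited RPKM, by its name a measure per gene length. For some members, such as Bag4, RPKM did not follow the counts between libraries, so these ranks and shares hold for RPKM alone. Hsp90ab1 was the most abundant member in every group, with 276 ± 20.5 RPKM in MEF (SD, n = 5). In MEF it was followed by Hspa5 and Hsp90b1. Cryab ranked 12 of 70 in MEF, 4 in MGT and 2 in MΔGΔT, and Hspb7 ranked 66, 17 and 9. Cryab in MΔGΔT thus stood at 124 to 143 RPKM, above the 73.8 to 80.5 RPKM of Hspa8 in the same libraries. The 7 small heat shock protein genes made up 4.07 to 4.52% of the summed RPKM of all members in MEF, 11.5 to 13.2% in MGT and 18.3 to 19.5% in MΔGΔT. The share of the 10 HSP70 genes went from 25.9 to 27.8% in MEF to 21.3 to 22.1% and 19.2 to 19.5%, and that of the 3 HSP90 genes from 32 to 33.8% to 30.3 to 31% and 26.4 to 27.3%. The HSP60 and HSP10 share was 4.64 to 5.38, 4.13 to 4.34 and 3.24 to 3.52%. These shares are fixed to sum to the whole, so a rise of one lowers the others.

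**Figure D4:**
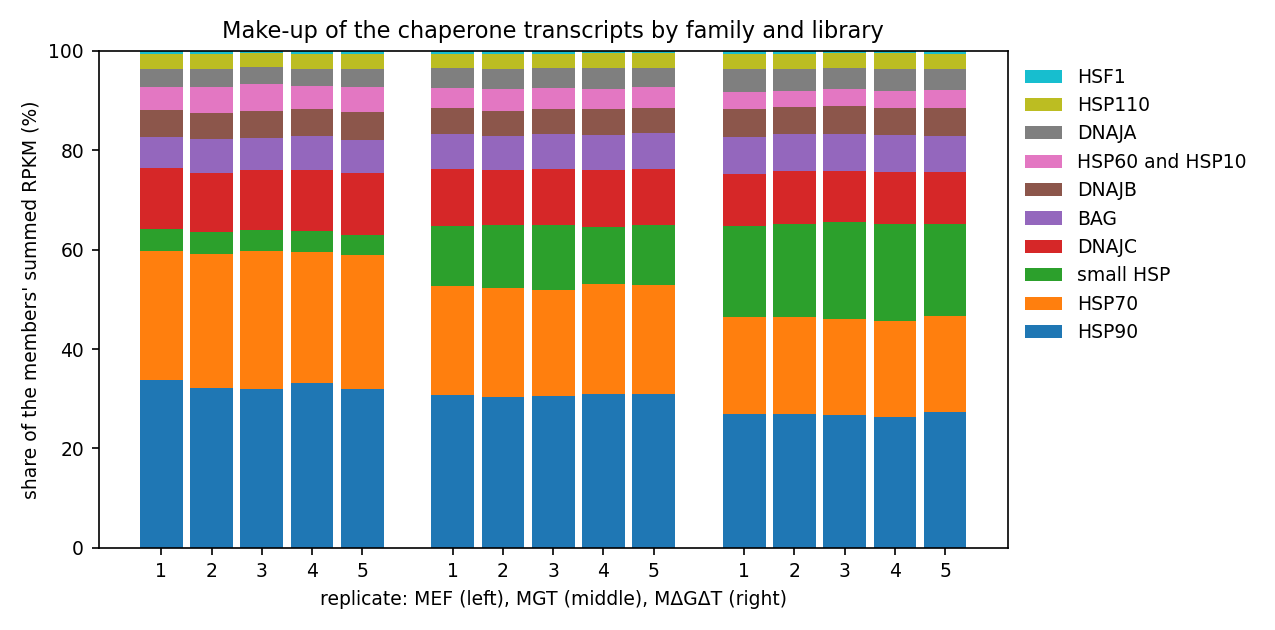
Share of the members' summed RPKM (y, percent) held by each family (colour) in each of the 15 libraries (x). The small heat shock proteins grow from 4.07 to 4.52% in MEF to 18.3 to 19.5% in MΔGΔT, and the HSP70 share shrinks from 25.9 to 27.8% to 19.2 to 19.5%.

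Chaperones outside the 70 were counted in lists of their partners. Of 26 HSP90 co-chaperones 9 rose and 4 fell in MGT, and 7 rose and 8 fell in MΔGΔT against MEF. Under all 5 scalings these were 8 and 1 in MGT and 3 and 8 in MΔGΔT. For this and the next lists, the shares of all features called higher and lower were 30.9% and 30.3% in MGT and 36.2% and 36.1% in MΔGΔT, and under all 5 scalings 28.1% and 24.5%, and 21.9% and 35.0%. Their named members included a pair of muscle genes. Unc45b, the chaperone that folds myosin with HSP90, ranged from 0.112 to 0.67 CPM in MEF, 1.36 to 2.39 in MGT and 5.87 to 8.17 in MΔGΔT, and rose by 1.92 between the transduced groups (adjusted p = 8.8e-13). Smyd1, a muscle methyltransferase that binds HSP90, stood at 0 to 0.303 CPM in MEF, 7.74 to 10.9 in MGT and 19 to 22.3 in MΔGΔT (1.18 between the transduced groups, adjusted p = 2.5e-13). Fkbp4, the HSP90 co-chaperone of steroid receptors, was lower in MΔGΔT alone among the comparisons with MEF (-0.71, adjusted p = 2.9e-15; 0.04 in MGT, adjusted p = 0.532), and the difference between the transduced groups was -0.75 (adjusted p = 9.8e-16).

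The cytosolic chaperonin TRiC folds actin and tubulin. All 8 of its tested subunits were higher in MGT than in MEF, 6 of them under all 5 scalings, by 0.10 to 0.34 on the log2 scale. In MΔGΔT 4 were higher and 1 lower than in MEF, of which 1 (Cct8) and 1 (Cct5) held under all 5 scalings. Cct8 stood at 185 to 217 CPM in MEF, 239 to 265 in MGT and 387 to 409 in MΔGΔT (1.01 against MEF, adjusted p = 9.4e-25). Cct5 was at 0.11 and -0.14 and Cct6a at 0.27 and 0.08 against MEF. Of 6 prefoldin subunits 1 rose and 1 fell in MGT and 2 rose and 1 fell in MΔGΔT, where neither rise held under all 5 scalings, with Pfdn5 at -0.47 and -0.56, Vbp1 at 0.22 and 0.41 and Pfdn4 at 0.01 and 0.24.

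Among 7 genes tied to the chaperone-assisted autophagy of Bag3 and Hspb8, 3 rose and 2 fell in MGT and 4 rose and 2 fell in MΔGΔT, where 2 rises and 2 falls held under all 5 scalings. Flnc, the filamin of muscle that Hspb7 and Bag3 bind, ranged from 504 to 538 CPM in MEF, 1053 to 1146 in MGT and 1499 to 1610.0 in MΔGΔT, with rises of 1.07 and 1.59 (adjusted p = 7.3e-28 and 7.2e-34). Synpo2, an adaptor of this route, was at -0.06 in MGT (adjusted p = 0.632) and rose in MΔGΔT by 0.97 (adjusted p = 1.5e-11). Lamp2, a lysosomal membrane protein, fell by 0.37 and 0.48 on the log2 scale. Of 10 other HSP70 regulators 1 rose and 4 fell in MGT and 4 rose and 4 fell in MΔGΔT. Under all 5 scalings these were 1 and 1 in MGT and 0 and 4 in MΔGΔT. Sil1, the exchange factor of Hspa5, was like Dnajb14 lower in MGT (-0.34, adjusted p = 4.8e-05) and higher in MΔGΔT than in MEF (0.26, adjusted p = 0.000606), the latter not under all 5 scalings. St13, a cofactor that binds HSP70, was at -0.13 and -0.31 and Hyou1, an exchange factor of the endoplasmic reticulum, at 0.14 and 0.31. Of 9 mitochondrial chaperones and proteases 4 rose and 3 fell in MGT and 5 rose and 3 fell in MΔGΔT, or 4 and 0, and 2 and 3, under all 5 scalings, with the inner membrane proteases Yme1l1 at 0.40 and 0.47 and Spg7 at 0.14 and 0.68, and the matrix unfoldase Clpx at 0.42 and 0.17, the latter -0.07 at the lowest scaling.

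The annotated exons of 28 members share bases with another gene, and those of 9 share more than 10%. Beyond the pairs described above these were Bag4, Dnajc14, Dnajc30, Hsp90b1 and Hspa1a, whose counts are uncertain to that extent without knowledge of strand.

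Of the 70 members 37 were named by a rule on level, fold and direction, and 33 were left to counts and ranges. Of the latter, Bag5, Dnajb1, Dnajb2, Dnajb6, Dnajc1, Dnajc5, Dnajc9, Hspa1a, Hspa1b, Hspa2, Hspb8 and Hspb11 are named with values or in lists because their values had been seen. Dnajc16 is named for a motif, and Bag4, Dnajc14 and Dnajc30 for shared exon bases. In all, 50 members had a mean above 10 CPM in every group.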

How the data were processed

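The 15 libraries are directional and were made from total RNA after removal of rRNA, per the labels' protocols. The deposited table holds raw counts per feature made by the authors, and values of the authors headed RPKM. The header gives the name of this measure only. For some members RPKM did not follow the counts between libraries, and the cause was not tested. Bag4 in MGT, for example, had 6.02 CPM and 1.87 RPKM in replicate 1, and 5.02 CPM and 2.27 RPKM in replicate 4. The build is mm10, per the submitters' processing notes; mapper, counter and handling of strand were not stated in the labels or headers read here. The table gives 4 columns per library, and the 30 columns of normalized and transformed values of these libraries were not used. Of 14091 features 21 are headed by a date in place of a symbol and hold 0.26% of the counts. No 2 libraries were identical.

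Counts were fitted over all 15 libraries with edgeR 4.0.16 in R 4.3.3 (quasi-likelihood test, TMM, low counts filtered by group), with 13328 features tested, 12 residual degrees of freedom and Benjamini-Hochberg adjustment. Alternatives were DESeq2 1.42.0, limma 3.58.1 voom, other scalings and filters, the replicate number as a block, each pair of groups alone, and each library left out. Named members are Cryab, Hspb7 and Hsf1, up to 3 per family by mean RPKM, up to 10 per comparison and direction by fold among those called at least 2-fold, members called in opposite directions against MEF, and up to 3 genes per list by adjusted p. Members, lists and rules were chosen with earlier results of these data known. Gene positions are from GENCODE on mm10, and promoters from RefSeq.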

Additional observations from a re-analysis of the deposited data

Results flagged for a closer look

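A library was marked where its gap to the nearest other library of its group of 5 exceeded 0.71 of the group's range (Dixon's 95% value). Of 111 such checks 4 (3.6%) were marked, and chance marks about 5%. Hspa9 stood at 674 CPM in MEF replicate 3, against 625 to 633 in the other MEF libraries. Hsp90ab1 stood at 1315 CPM in MGT replicate 5, against 1264 to 1277. Dnajb11 stood at 79.3 CPM in MGT replicate 3, against 74.5 to 75.6. Hspb6 was low in MGT replicate 5, at 8.77 CPM against 11.4 to 12.3.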

How the results depend on the processing

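Scaling moved the results most, and the cause was not tested. For MΔGΔT against MEF, RPKM-implied totals gave 35 lower members and 6 at least 2-fold lower, with 53.7% of all features lower. For MΔGΔT against MGT, library totals gave 20 higher, 29 lower and 2 at least 2-fold lower, upper-quartile factors 18 lower, and RPKM-implied totals 12 higher, 34 lower, 1 at least 2-fold higher and 3 at least 2-fold lower, while 12 were higher under all 5 scalings. All features moved too: 18.3% were higher and 46.5% lower with library totals, 25.5% and 33.6% with upper-quartile factors, and 14% and 54.5% with RPKM-implied totals. The sign turned in MΔGΔT against MEF with RPKM-implied totals for Bag6 (-0.08), Dnajb12 (-0.18), Dnajb14 (-0.07), Dnajc10 (-0.05), Hsp90b1 (-0.18) and Hspa8 (-0.19). In MΔGΔT against MGT it turned with library totals for Bag1 (-0.03), Dnajb12 (-0.16), Dnajc10 (-0.14), Hsf1 (-0.14), Hsp90b1 (-0.17) and Hspa8 (-0.06). With RPKM-implied totals it turned there for Bag1 (-0.12), Bag3 (-0.07), Dnaja1 (-0.03), Dnajb12 (-0.25), Dnajc10 (-0.22), Hsf1 (-0.23), Hsp90aa1 (-0.00), Hsp90b1 (-0.25), Hspa4 (-0.05) and Hspa8 (-0.14). A minimum mean of 1 CPM left 0 members at least 2-fold lower in MGT against MEF, since Dnajb13 is then not tested. Leaving out 1 library gave 24 to 26 higher and 15 to 18 lower members in MGT against MEF, 31 to 32 and 20 to 22 in MΔGΔT against MEF, and 28 to 31 and 6 to 10 in MΔGΔT against MGT, the 6 without replicate 4 of MΔGΔT. With the replicate number as a block the counts were 25 and 17, 31 and 21, and 31 and 9. Libraries with the same number did not deviate together (correlations from -0.09 to 0.07, 3 of 15 libraries closest to their own number), so the numbers give no pairing. Of 111 values of named genes, DESeq2 and limma voom each kept the direction and call of 110. Depth limits Dnajb13, Dnajc6 and Hspb2, which had 22 counts or fewer per MEF library.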
